A study of Aedes aegypti with 48 samples.

Results

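The comparison concerned Cyc knockout (KO) females of the yellow fever mosquito Aedes aegypti at ZT5, 4 h after ZT1, against KO females at ZT1. Its members were the 6 KO libraries collected at ZT5 (11 AM) and the 6 collected at ZT1 (7 AM), chosen by their labels, which made 12 of the 48 libraries in the series. ZT gives the hour of the light/dark cycle, so ZT1 lies in the early morning and ZT5 around midday. The KO is the homozygous AeCyc-/- line of the Liverpool strain, and the wild type (WT) of the same strain was collected at the same times. Each library came from a pool of 10 mosquitoes taken 5 days after emergence, reared at 27 °C in 12 h of light and 12 h of dark, and RNA of both genotypes was sequenced at ZT1, ZT5, ZT9 and ZT13. The question was which changes between early morning and midday remained, and which arose, in mosquitoes without functional Cyc that still saw the light cycle.

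In Drosophila, the protein Cyc pairs with Clk, and the pair switches on the clock genes per and tim together with many output genes. The proteins of per and tim return to the nucleus and repress that pair, which closes a daily feedback loop. Light reaches the animal independently of this loop, and feeding, activity and temperature can also follow the light cycle. RNA came from pooled mosquitoes, so fewer cells of a type and less RNA per cell cannot be told apart in any value here.

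The targeted gene was measured first. Cyc (AAEL002049) had 29.2, 33.3 and 34.4 CPM (read counts scaled to a common library total; lowest, median and highest of 6) in KO libraries at ZT5 and 29.7, 38.2 and 44.3 CPM in KO libraries at ZT1. In WT it had 64.9, 66.6 and 70.1 CPM at ZT5 and 63.5, 73.0 and 75.9 CPM at ZT1. At ZT5 and ZT1, all 12 KO libraries thus lay below all 12 WT libraries. At ZT9 and ZT13 the medians were closer, at 30.9 and 38.7 CPM in WT and 27.6 and 31.5 CPM in the KO. Within the KO, Cyc RNA at ZT5 and ZT1 overlapped, with a log2 fold change of -0.20 (SE 0.10, adjusted p = 0.262).

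The KO libraries held 21583793 to 30691302 counts on genes at ZT5 and 17018412 to 24770646 at ZT1. The share of read pairs aligned to more than 1 place was 25.6% to 47.8% at ZT5 and 38.1% to 55.5% at ZT1, with a mean of 35.7% (SD 8.97) at ZT5 and 46.5% (SD 6.99) at ZT1 (n = 6 each, exact permutation test, two-sided, p = 0.0563). By the same exact permutation test, 3 of 7 library measures had a p below 0.05 in the KO, namely counts on genes (p = 0.0173), genes with a count (medians of 14365.5 at ZT5 and 14100 at ZT1, p = 0.0238) and the share of read pairs counted on genes (means of 27.4% at ZT5 and 22.7% at ZT1, p = 0.0498), each with an adjusted p of 0.0757 over the 7 measures. In WT the exact p values of these 3 were 0.0541, 0.47 and 0.368. Over the 500 most variable genes, the first principal component held 20.6% of the variance and placed the ZT5 libraries at 0.923 to 18.4 and the ZT1 libraries at -12.2 to -0.416. The scores did not overlap (exact permutation test, two-sided, p = 0.00216, the smallest these libraries can give). At each time the library of highest score had the lowest share of read pairs aligned to more than 1 place. These were 18.4 at 25.6% (ZT5 replicate 2) and -0.416 at 38.1% (ZT1 replicate 3). The lowest scores were 0.923 at 45.1% (ZT5 replicate 6) and -12.2 at 55.5% (ZT1 replicate 6). The parts of time and of this share in the score were not tested. Over all genes past the filter the ZT5 and ZT1 scores overlapped, with p = 0.013 in the same exact test.

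**Figure D1:**
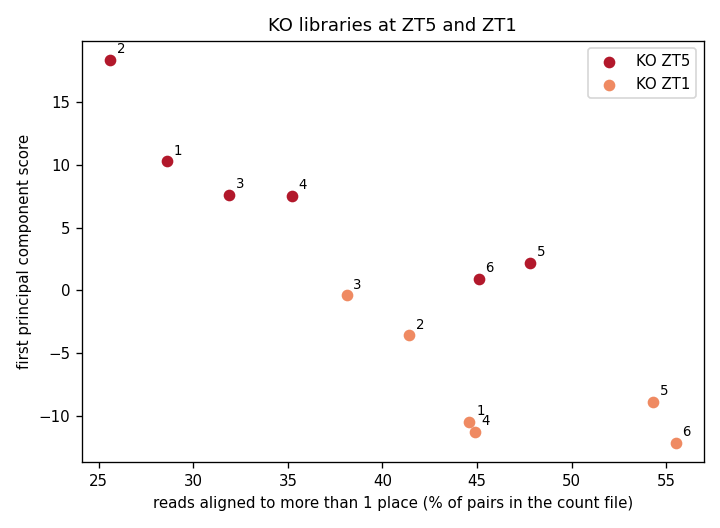
First principal component score (y axis) of the 6 KO libraries at ZT5 and the 6 at ZT1 against their share of reads aligned to more than 1 place (x axis, %), with replicate numbers. The ZT5 libraries score from 0.923 to 18.4 and the ZT1 libraries from -12.2 to -0.416. ZT5 replicates 5 and 6 have the highest shares of ZT5 (47.8% and 45.1%) and its lowest scores (2.18 and 0.923).

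Of 11487 genes tested with edgeR's quasi-likelihood test, 110 (0.958%) passed an adjusted p of 0.05, with 46 higher at ZT5 (0.4%) and 64 lower (0.557%). The median log2 fold change was 0.47 among the higher genes and -0.50 among the lower ones. Of the 110 genes, 56 changed by less than 0.5 on the log2 scale and 13 by more than 1. The ZT5 and ZT1 libraries did not overlap for 84 of the 110, and for 210 (1.83%) of all genes tested. At an unadjusted p below 0.05 there were 2714 genes (23.6%).

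The number of genes called depended strongly on the test, on single libraries and on the share of reads aligned to more than 1 place. The DESeq2 Wald test called 595 genes, 275 higher and 320 lower at ZT5, and the edgeR fit over all 48 libraries called 1002, of which 581 were higher and 421 lower. With the share of reads aligned to more than 1 place as a covariate, 6 genes passed, and leaving out 1 KO library at a time gave 32 genes (without ZT1 replicate 1) to 727 (without ZT1 replicate 2), with a move of over 1.5 times for every library but ZT5 replicate 6 and ZT1 replicate 5. Counts thinned to the smallest library gave 105 genes. With replicate number as a block, 45 genes passed, 5 higher and 40 lower at ZT5. Without composition scaling, 64 genes were higher and 30 lower, and the median of all genes tested moved to 0.11.

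Of the genes named by rule, 5 passed under all 20 alternatives run on the KO contrast. AAEL006004, for which no annotation was at hand, had 44.9, 50.4 and 54.8 CPM in KO libraries at ZT5 and 82.8, 86.2 and 96.3 CPM at ZT1. Its log2 fold change was -0.81 (SE 0.055, adjusted p = 4.57e-06), the lowest p of all genes. Every ZT5 library lay below every ZT1 library, and the same held in WT, where it had 42.1, 49.4 and 52.7 CPM at ZT5 and 60.1, 67.3 and 71.3 CPM at ZT1. The WT log2 fold change was -0.46 (adjusted p = 0.00116), and the genotype difference did not pass (adjusted p = 0.0581).

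AAEL013341, listed by KEGG in the longevity regulating pathway, had 38.8, 41.8 and 45.7 CPM at ZT5 and 59.0, 64.1 and 68.6 CPM at ZT1 in the KO. The groups did not overlap, and the log2 fold change was -0.61 (SE 0.053, adjusted p = 7.06e-05). In WT it had 28.1, 30.8 and 31.8 CPM at ZT5 and 25.1, 30.1 and 31.3 CPM at ZT1, which overlapped. Its KO change lay below its WT change by 0.65 on the log2 scale (SE 0.076, adjusted p = 9.13e-05), and the WT change of 0.05 did not pass (adjusted p = 0.742). Later in the day the KO libraries had medians of 36.2 CPM at ZT9 and 35.1 CPM at ZT13, below every ZT1 library.

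AAEL002404, a receptor protein tyrosine kinase, had 335, 453 and 473 CPM at ZT5 and 593, 710 and 776 CPM at ZT1 in the KO. It fell by 0.68 on the log2 scale without overlap (SE 0.088, adjusted p = 0.0043). WT had lower levels at both times, with 145, 171 and 237 CPM at ZT5 and 118, 122 and 198 CPM at ZT1. The WT change of 0.34 did not pass (adjusted p = 0.23), and the genotype difference of -1.01 did (SE 0.18, adjusted p = 0.00809, and 0.0598 in the fit over 48 libraries). AAEL012248, with chloride channel activity as its gene ontology term, had 2.49, 3.05 and 3.58 CPM at ZT5 and 4.94, 5.43 and 6.47 CPM at ZT1 in the KO, a log2 fold change of -0.89 (SE 0.12, adjusted p = 0.00489). It fell in WT as well (-0.71, adjusted p = 0.00888).

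AAEL003316, without an annotation at hand, was the gene of the 5 that rose. It had 35.8, 39.9 and 41.1 CPM at ZT5 and 25.3, 27.8 and 31.1 CPM at ZT1 in the KO, with no overlap. Its log2 fold change was 0.48 in the KO (SE 0.057, adjusted p = 0.00285) and 0.46 in WT (SE 0.097, adjusted p = 0.0134). The difference between genotypes was 0.02 (SE 0.12).

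**Figure D2:**
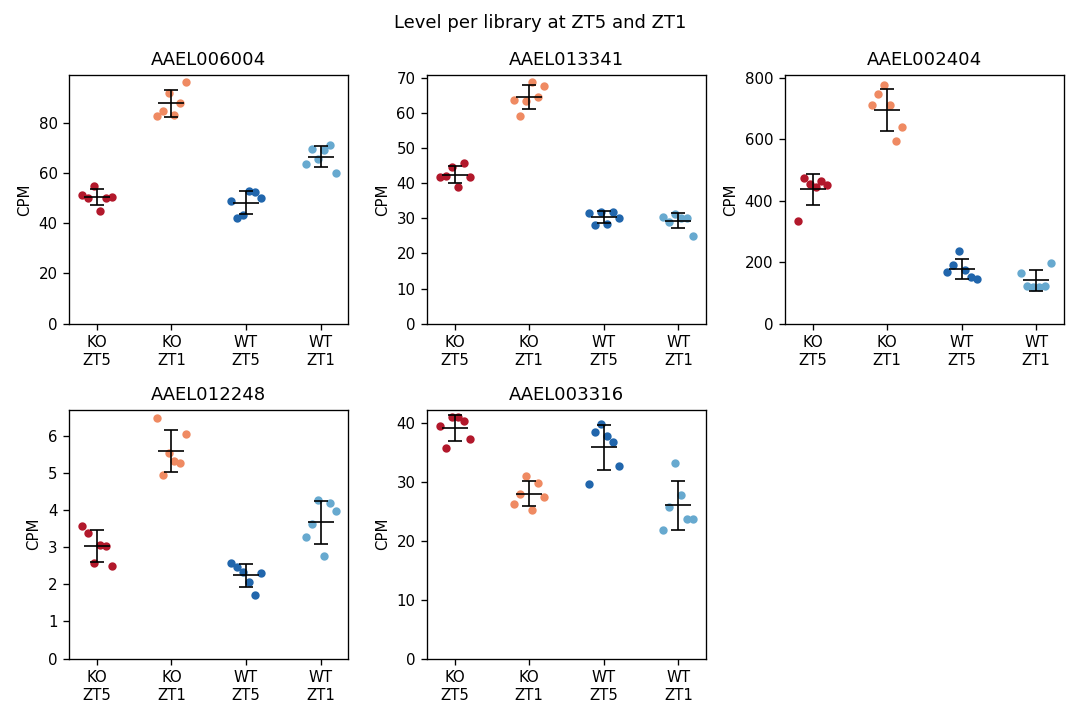
Levels in CPM (y axes, from 0) of the 5 genes called under all alternatives, 1 point per library, for KO at ZT5 and ZT1 and WT at ZT5 and ZT1, with mean and SD bars (n = 6). In the KO the ZT5 and ZT1 points do not overlap for any of the 5, while for AAEL013341 the WT points overlap.

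Genes of the clock itself were then examined. The study's supplement listed 10 of the 11 genes of KEGG's fly circadian rhythm pathway, and all 10 were tested. In the KO 1 rose and 1 fell, where 0.4% of all genes tested rose and 0.557% fell. The median log2 fold change of the 10 was -0.02 (0.09 without composition scaling), against -0.0017 over all genes tested. In WT, 1 rose and 2 fell, where 2.11% of all genes tested rose and 1.68% fell.

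AAEL008141 is a member of this pathway annotated to a transcription regulator complex. It had 38.6, 44.0 and 51.7 CPM in KO libraries at ZT5 and 50.7, 62.0 and 75.1 CPM at ZT1, with a slight overlap. WT libraries had 32.7, 35.9 and 41.4 CPM at ZT5 and 73.6, 83.5 and 93.6 CPM at ZT1, far apart. The log2 fold change was -0.50 in the KO (SE 0.093, adjusted p = 0.0229) and -1.19 in WT (SE 0.074, adjusted p = 1.84e-06). The difference of 0.70 passed (SE 0.12, adjusted p = 0.00773), so the fall was smaller in the KO. The KO call was lost with the covariate (adjusted p = 0.348), and without any one of ZT5 replicates 1, 3 and 4 and ZT1 replicates 1 and 4 (adjusted p up to 0.064), whereas the genotype difference passed under every alternative run. At ZT9 and ZT13 the KO medians were 63.7 and 115 CPM, and the WT medians 81.0 and 185 CPM.

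AAEL011371, a DNA-binding transcription factor of the pathway, had 62.0, 63.2 and 67.1 CPM at ZT5 and 51.6, 52.1 and 57.2 CPM at ZT1 in the KO, without overlap. In WT it had 74.6, 82.6 and 93.9 CPM at ZT5 and 55.0, 59.9 and 70.4 CPM at ZT1, also without overlap. It rose by 0.24 in the KO on the log2 scale (SE 0.045, adjusted p = 0.0211) and by 0.42 in WT (SE 0.073, adjusted p = 0.00429). The KO call was lost with the covariate (adjusted p = 0.243) and with replicate number as a block (adjusted p = 0.11). It was also lost without any one of ZT5 replicates 2 and 4 and ZT1 replicates 1 and 4 (adjusted p up to 0.0674). AAEL019461 had 55.4, 73.8 and 76.6 CPM at ZT5 and 73.8, 92.5 and 104 CPM at ZT1 in the KO, which did not pass (-0.37, adjusted p = 0.0894), and passed in WT (-0.76, adjusted p = 0.00999). No genotype difference was called for AAEL011371 (adjusted p = 0.316) or AAEL019461 (adjusted p = 0.285). The other 7 genes of the pathway, Cyc among them, did not pass in either genotype.

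**Figure D3:**
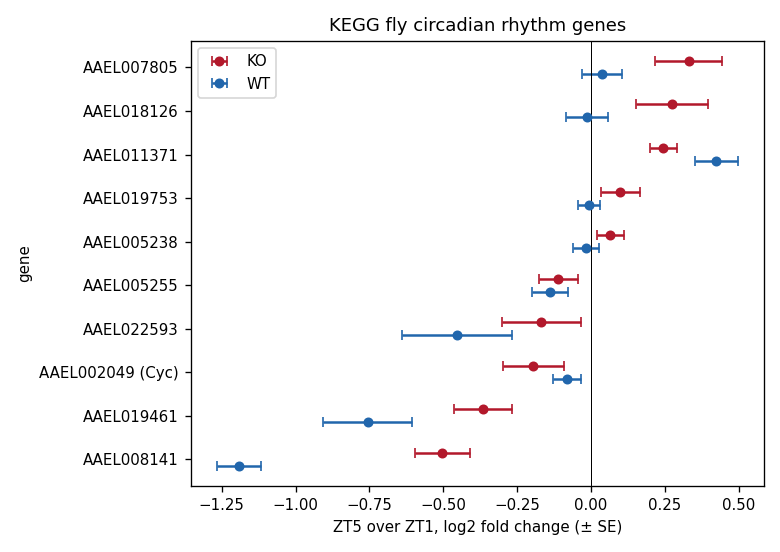
Log2 fold change of ZT5 over ZT1 (x axis, with SE) for the 10 fly circadian rhythm genes held (y axis), KO above WT for each gene. AAEL008141 has -0.50 in the KO and -1.19 in WT.

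Genes of folate and serine metabolism gave 4 of the 64 falls. Folate carries single-carbon units that cells take largely from serine and use for nucleotides and methylation. The gene lists came from the study's own enrichment of KO against WT genes, which used these same KO libraries, so their direction here is not independent evidence. Of 10 serine family amino acid metabolism genes, 2 fell, none rose, and the median was -0.33. Of 10 pteridine metabolism genes 2 fell, with a median of -0.22, and of 6 genes held from the one-carbon pool by folate 2 fell, with a median of -0.33, where 0.557% of all genes tested fell and their median was -0.0017. The lists share members, and these falls come from 4 genes, with AAEL002510 in the serine and pteridine lists and AAEL025199 in the pteridine and one-carbon lists. Without composition scaling the medians of the 3 lists were -0.22, -0.11 and -0.22. In WT they were -0.06, -0.04 and -0.03.

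AAEL014871, in the one-carbon pool by folate, had 22.1, 26.1 and 30.2 CPM at ZT5 and 34.3, 44.0 and 47.3 CPM at ZT1 in the KO. The groups were clear of each other, and the log2 fold change was -0.72 (SE 0.093, adjusted p = 0.0043, and 0.0675 with the covariate). In WT it had 21.9, 24.9 and 27.9 CPM at ZT5 and 20.8, 24.1 and 25.9 CPM at ZT1, and the genotype difference was -0.76 (SE 0.12, adjusted p = 0.00257). Thus KO libraries at ZT5 overlapped those of WT, and KO libraries at ZT1 lay above them. AAEL025199, of the same pathway, fell by 0.48 in the KO (adjusted p = 0.0304) and by 0.23 in WT (adjusted p = 0.0235).

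AAEL002510, a member of both the pteridine and the serine list, had 165, 207 and 217 CPM at ZT5 and 243, 294 and 331 CPM at ZT1 in the KO (-0.55, SE 0.10, adjusted p = 0.0208). AAEL001100, of glycine, serine and threonine metabolism, had 14.7, 16.9 and 18.2 CPM at ZT5 and 19.1, 20.6 and 22.5 CPM at ZT1 in the KO. It fell in the KO (-0.31, adjusted p = 0.0392) and rose in WT (0.22, adjusted p = 0.0494), and the difference passed (-0.52, SE 0.085, adjusted p = 0.00338). The WT call of AAEL001100 was lost on leaving out any WT library except ZT5 replicate 4 and ZT1 replicate 6 (adjusted p up to 0.0985). It was also lost with replicate number as a block (adjusted p = 0.118). The KO calls of AAEL025199, AAEL002510 and AAEL001100 were lost with the covariate (adjusted p = 0.298, 0.288 and 0.174). With replicate number as a block they were lost too (adjusted p = 0.137, 0.11 and 0.105). All 3 were also lost without ZT5 replicate 1 or 4 or ZT1 replicate 1 or 4, that of AAEL025199 also without ZT5 replicate 2, 3 or 5 or ZT1 replicate 3, and that of AAEL001100 on leaving out any KO library except ZT1 replicates 2 and 5 (adjusted p up to 0.0849, 0.064 and 0.0976).

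**Figure D4:**
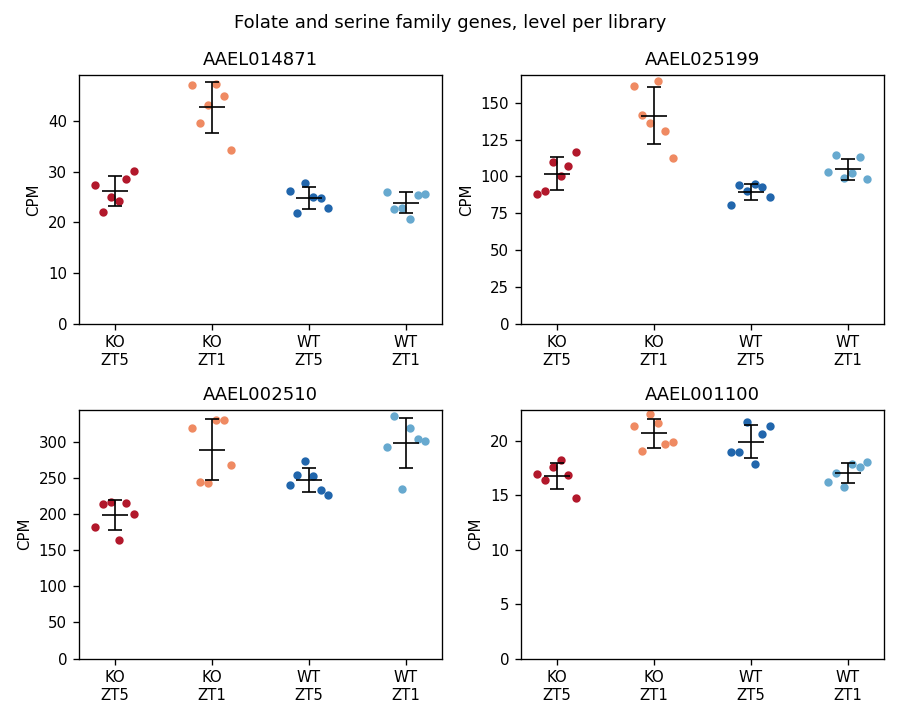
Levels in CPM (y axes, from 0) of 4 folate and serine family genes, 1 point per library, in KO at ZT5 and ZT1 and WT at ZT5 and ZT1, with mean and SD bars (n = 6). AAEL014871 has KO medians of 26.1 CPM at ZT5 and 44.0 CPM at ZT1.

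Of 23 structural cuticle genes held out of 204 in the term, 18 were tested, 3 rose and none fell, where 0.4% of all genes tested rose. The held genes came from the study's enrichment of KO against WT genes, which used these same KO libraries. The list was also chosen after the data were seen, so its counts and direction are not independent evidence. Of the 18, 13 had positive and 5 negative values, with a median of 0.21 (0.32 without composition scaling and 0.13 with the covariate), and the WT median was 0.17. AAEL022261 had 19.5, 25.0 and 34.1 CPM at ZT5 and 13.1, 15.7 and 17.5 CPM at ZT1 in the KO (0.72, SE 0.12, adjusted p = 0.0166). AAEL008764 rose by 0.76 (adjusted p = 0.0289) and AAEL014419 by 0.34 (adjusted p = 0.0463). The KO groups were without overlap for all 3, and with the covariate the adjusted p values were 0.253, 0.325 and 0.507. With replicate number as a block they were 0.0834, 0.101 and 0.105. The calls of AAEL022261 and AAEL014419 were also lost in the fit over 48 libraries. Leaving out 1 library ended the call of AAEL008764 without ZT5 replicate 1, 4 or 5 or ZT1 replicate 1, 4 or 6 (adjusted p up to 0.0793), and that of AAEL014419 on leaving out any KO library except ZT1 replicate 2 (up to 0.112).

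In the longevity regulating pathway 3 of 26 genes tested fell and none rose, where 0.557% of all genes tested fell. Only 30 of the pathway's 63 genes were held, from the study's enrichment of KO against WT genes, which used these same KO libraries. This list too was chosen after the data were seen, so its counts are not independent evidence. Over the list 15 values were positive and 11 negative, with a median of 0.03 (0.15 without composition scaling, where 1 gene passed). Besides AAEL013341 the genes that fell were AAEL013347 (-0.42, SE 0.063, adjusted p = 0.00902, and 0.0534 with the covariate) and AAEL027610. AAEL027610 was rare, with 0.491, 0.648 and 0.903 CPM at ZT5 and 1.03, 1.47 and 2.77 CPM at ZT1 in the KO. It fell by 1.40 on the log2 scale (SE 0.28, adjusted p = 0.0304) and passed with the covariate (adjusted p = 0.0211), and it fell by 3.34 in WT (adjusted p = 0.00121). Its KO call was lost without ZT5 replicate 2, 3, 4 or 5 or ZT1 replicate 3 or 4 (adjusted p up to 0.0829). It was also lost without composition scaling and with replicate number as a block (adjusted p = 0.0797 with the block).

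The 12 higher and 12 lower genes of largest change, among those whose mean log2 CPM was 1 or more and whose groups did not overlap, ran from 0.58 to 1.93 and from -1.62 to -0.68. AAEL017500 had 2.06, 3.24 and 5.95 CPM at ZT5 and 0.359, 0.897 and 1.76 CPM at ZT1 in the KO, the largest rise (1.93, SE 0.34, adjusted p = 0.0192). AAEL026304 had 56.0, 79.7 and 160 CPM at ZT5 and 22.2, 33.5 and 44.9 CPM at ZT1, a rise of 1.40 (SE 0.25, adjusted p = 0.0197). By ZT9 their KO medians were 0.559 and 32.2 CPM, within the ZT1 range of each. The most abundant gene of these was AAEL028771, with 379, 511 and 1040 CPM at ZT5 and 1090, 1550 and 2830 CPM at ZT1 in the KO (-1.50, SE 0.29, adjusted p = 0.0263). The largest fall was that of AAEL024645, with 0.713, 1.04 and 1.47 CPM at ZT5 and 2.41, 3.08 and 4.29 CPM at ZT1 (-1.62, SE 0.22, adjusted p = 0.00489). With the covariate these 4 genes had adjusted p values of 0.252, 0.301, 0.288 and 0.0764. With replicate number as a block they had 0.0805, 0.0454, 0.065 and 0.0116. Single libraries ended 3 of the calls: that of AAEL017500 without ZT5 replicate 4 or ZT1 replicate 1 (adjusted p up to 0.0553), that of AAEL026304 without either of these or ZT1 replicate 4 (up to 0.0612), and that of AAEL028771 without ZT5 replicate 2, 3 or 4 or ZT1 replicate 1 or 3 (up to 0.0724). No annotation was at hand for these 4 genes.

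Other annotated genes that fell were the serine-type endopeptidase AAEL002360 (-1.22, adjusted p = 0.0095), AAEL011510 of inositol phosphate metabolism (-0.94, adjusted p = 0.0262) and the odorant binding gene AAEL018102 (-0.55, adjusted p = 0.0119). Of the 31 genes that the study names by identifier in its text, 23 were tested in the KO. Of these 23, 1 was called in the KO and 3 in WT, where 0.958% and 3.79% of all genes tested were called. The KO call was AAEL011174, the gustatory receptor Gr11, with 16.8, 18.6 and 22.4 CPM at ZT5 and 23.0, 24.2 and 27.4 CPM at ZT1 (-0.35, SE 0.078, adjusted p = 0.0472). Among genes that rose were AAEL006209, annotated to mismatch repair (0.38, adjusted p = 0.0304), AAEL006715 of the Fanconi anemia DNA repair pathway (0.32, adjusted p = 0.0463) and the monooxygenase AAEL017136 (0.58, adjusted p = 0.0346). With the covariate none of these 7 passed, with adjusted p between 0.105 and 0.51. With replicate number as a block AAEL011174, AAEL006209, AAEL006715 and AAEL017136 did not pass (adjusted p between 0.144 and 0.162). Leaving out 1 library ended the calls of AAEL011510, AAEL011174, AAEL006209, AAEL006715 and AAEL017136 in 8 to 10 of 12 fits each, always including those without ZT5 replicate 1, 2 or 4 or ZT1 replicate 1 or 4, with adjusted p up to 0.124.

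To separate changes that remained from those that arose without Cyc, the KO was set beside WT. In WT, 443 of 11698 genes passed (3.79%), with 247 higher at ZT5 (2.11%) and 196 lower (1.68%). The order of the genotypes depended on the threshold and the fit. At an unadjusted p below 0.05 there were 17.5% of genes in WT and 23.6% in the KO. The edgeR fit over 48 libraries called 398 genes in WT and 1002 in the KO. Of the 110 KO genes, 23 were called in the same direction in WT (20.9% of the KO genes and 5.19% of the WT genes), 12 of them higher and 11 lower (18 and 5 without composition scaling). The WT change had the sign of the KO change for 86 of the 110 (78.2%), against 57.1% of all genes tested in both genotypes.

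For 1 of the 23, AAEL008141, the genotypes also differed in the size of the change. The 23 held, besides AAEL008141, AAEL025199, AAEL027610, AAEL006004, AAEL012248, AAEL003316 and AAEL011371, some further genes outside the naming rule, picked here after their values were seen. AAEL009593, a carboxy-lyase of histidine metabolism, had 4.22, 5.25 and 6.29 CPM at ZT5 and 6.02, 9.13 and 9.52 CPM at ZT1 in the KO, which overlapped. It fell by 0.71 in the KO (adjusted p = 0.0192) and by 0.63 in WT. AAEL004335, annotated to iron ion homeostasis, fell by 0.42 in the KO (adjusted p = 0.0463) and by 0.59 in WT. AAEL000092, annotated to drug metabolism, fell by 0.48 in the KO (adjusted p = 0.0463) and by 0.50 in WT (adjusted p = 0.0479). The WT call of AAEL000092 was lost in 14 of 20 alternatives. AAEL018159, without an annotation at hand, was among the more abundant genes that rose in both, with 204, 214 and 253 CPM at ZT5 and 160, 171 and 174 CPM at ZT1 in the KO. It had 206, 219 and 257 CPM at ZT5 and 147, 165 and 193 CPM at ZT1 in WT, and neither pair of groups overlapped. With the covariate none of these 4 passed in the KO, with adjusted p between 0.0764 and 0.49. With replicate number as a block AAEL004335, AAEL000092 and AAEL018159 did not pass in the KO (adjusted p = 0.149, 0.106 and 0.065). Single libraries ended the KO call of AAEL009593 without ZT1 replicate 1 or 4 (up to 0.0557), and those of AAEL004335 and AAEL000092 on leaving out any KO library except ZT5 replicate 6 and ZT1 replicates 2 and 5 (up to 0.123).

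Counts of calls do not show that the genotypes differ, so the difference between the changes was tested itself.

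That difference passed for 80 of 11977 genes (0.668%), with the KO change above the WT change in 31 and below it in 49 (36 and 28 without composition scaling). Among the 110 KO genes it passed for 16, 5 higher and 11 lower at ZT5 in the KO (7 and 7 without composition scaling), of which 13 were not called in WT. A further 72 KO genes were called neither in WT nor for the difference, so these data do not place them on either side. Among the 443 WT genes the difference passed for 47, of which 34 rose and 13 fell in WT (21 and 22 without composition scaling).

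AAEL002269, annotated to nicotinate and nucleotide metabolism, moved in opposite directions. It had 49.6, 61.7 and 75.3 CPM at ZT5 and 82.4, 97.6 and 127 CPM at ZT1 in the KO, and 65.9, 72.5 and 85.5 CPM at ZT5 and 49.2, 59.3 and 65.3 CPM at ZT1 in WT. Neither pair of groups overlapped. The KO change was -0.67 (adjusted p = 0.0095), the WT change 0.33 (adjusted p = 0.0323) and the difference -0.99 (SE 0.14, adjusted p = 0.0019). With the covariate the KO change had an adjusted p of 0.174, and the WT call was lost without WT ZT5 replicate 1, 3 or 5 or ZT1 replicate 3, 4, 5 or 6 (adjusted p up to 0.0743). That WT call was also lost with replicate number as a block (adjusted p = 0.0788). At ZT13 the median of AAEL002269 was 168 CPM in the KO and 114 CPM in WT, each above every ZT1 library of the same genotype.

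AAEL012453, without an annotation at hand, had 13.6 to 18.5 CPM at ZT5 and 8.53 to 12.2 CPM at ZT1 in the KO. All WT libraries lay higher, at 22.1 to 25.6 CPM at ZT5 and 22.5 to 24.8 CPM at ZT1. The KO change was 0.65 (SE 0.091, adjusted p = 0.00616) and the difference 0.65 (SE 0.099, adjusted p = 0.00257, and 0.0518 in the fit over 48 libraries). With the covariate the KO change had an adjusted p of 0.0675. AAEL006863 (-0.57) and AAEL007947 (0.57) also differed between genotypes (adjusted p = 0.00257 and 0.00502). The monooxygenase AAEL009018 rose in WT (0.53, adjusted p = 0.000399), had -0.29 in the KO (adjusted p = 0.137), and differed by -0.80 (SE 0.13, adjusted p = 0.00257).

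**Figure D5:**
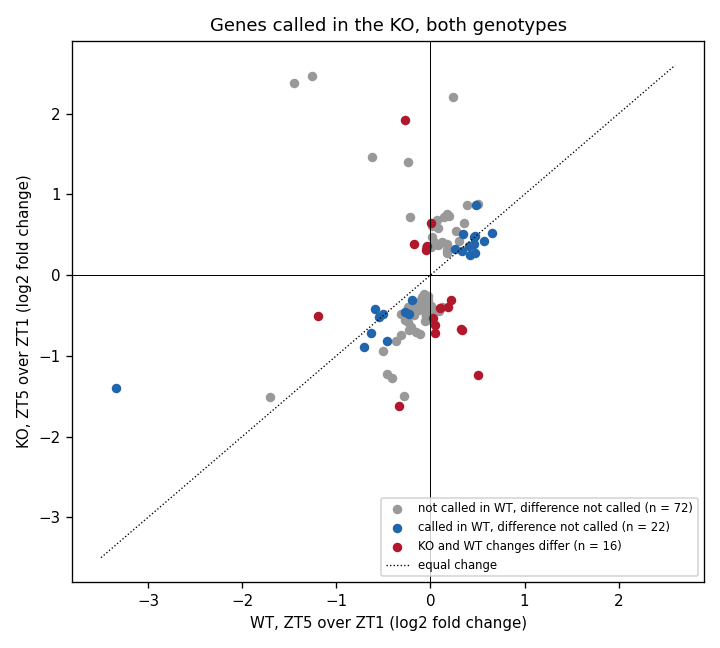
Log2 fold change of ZT5 over ZT1 in the KO (y axis) against WT (x axis) for the 110 genes called in the KO, with a dotted line of equal change. Red marks the 16 genes whose KO and WT changes differ, blue 22 others called in WT and grey the 72 called in neither way.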

How the data were processed

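Per the labels and methods, the authors trimmed reads with Trim Galore 0.6.6, aligned them with HISAT2 2.2.1 to AaegL5_2 and counted them with HTSeq 0.11.3. The deposited values are raw counts per gene, with 19804 identifiers and 5 summary lines per file. The summary lines were left out. No source used here names the strand option of the counting, which leaves overlapping and antisense genes uncertain. Nothing states whether pools came from separate broods, so p-values measure the spread between pools.

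Each genotype's 12 libraries were fitted alone with edgeR 4.0.16 (R 4.3.3; filterByExpr, TMM, quasi-likelihood test, Benjamini-Hochberg, threshold 0.05), and the difference between genotypes over 24 libraries. SE is the absolute log2 fold change over the root of F. CPM used TMM factors over 48 libraries. KO ZT13 replicate 1 was identical to WT ZT9 replicate 2 and was left out of the KO medians at ZT13. In simulated counts for the KO comparison (11487 genes, 100 changed per size), 61% of log2 changes of 0.5 and 92% of changes of 1 were recovered. The simulation drew each gene independently, with no factor shared across a library, so these rates need not hold for the real counts.

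None of the identifiers matched the RefSeq table (0 matches), so names and terms came from the study's supplement, which annotated 44 of the 110 called genes. Named were Cyc, the circadian pathway genes, the 12 higher and 12 lower genes of largest change (mean log2 CPM of at least 1, no overlap), the 5 of lowest p per direction, the 8 of lowest difference p overall and among KO calls, up to 4 called per list, and called genes from the study's text. Members and lists were chosen with earlier results of these data known, and the pathway lists after the data were seen. Alternatives were DESeq2 1.42.0, other scalings, no filter, all 48 libraries, a replicate block, thinned counts, single libraries left out and, added after seeing the data, the covariate.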

Additional observations from a re-analysis of the deposited data

Results flagged for a closer look

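In 116 sets of 6 values (KO genes named above and library measures at each time), 7 had a library far from the others, where chance gives about 1 in 20. These were Cyc (AAEL002049) in KO ZT5 replicate 4 at 29.2 CPM, AAEL002404 in ZT5 replicate 1 at 335 CPM, AAEL011371 in ZT5 replicate 2 at 67.1 CPM, AAEL014419 in ZT5 replicate 2 at 27.2 CPM and AAEL019461 in ZT5 replicate 4 at 55.4 CPM. At ZT1 they were AAEL005238 in replicate 6 at 149 CPM and AAEL027052 in replicate 5 at 20.7 CPM.

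The KO change differed from the WT change, by a test of the difference itself, in 13 of the named genes. The KO change lay below the WT change on the log2 scale in AAEL001100 (-0.52), AAEL002269 (-0.99), AAEL002404 (-1.01), AAEL006863 (-0.57), AAEL009018 (-0.80), AAEL013341 (-0.65), AAEL014871 (-0.76) and AAEL024645 (-1.27). It lay above the WT change in AAEL006715 (0.37), AAEL007947 (0.57), AAEL008141 (0.70), AAEL012453 (0.65) and AAEL017500 (2.198).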

How the results depend on the processing

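The DESeq2 Wald test gave higher counts throughout, with 595 genes in the KO, 771 in WT, 340 for the difference, 74 in both genotypes, 128 in the KO with a difference and 163 in WT with a difference. The fit over 48 libraries, which include the identical pair, gave 1002 genes in the KO, 398 in WT and 56 for the difference. It gave 45 in both genotypes, 27 in the KO with a difference and 27 in WT with a difference. Counts thinned to the smallest library gave 48 genes for the difference and 28 in WT with a difference. With the share of reads aligned to more than 1 place as a covariate, 6 KO genes, 26 differences, 4 in both genotypes, 2 in the KO with a difference and 12 in WT with a difference passed. The causes were not tested.

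Leaving out 1 library at a time gave 32 to 727 genes in the KO, 333 to 549 in WT, 25 to 189 for the difference, 7 to 52 in both genotypes, 6 to 95 in the KO with a difference and 16 to 68 in WT with a difference. The lowest were reached without KO ZT1 replicate 1 or 4 or KO ZT5 replicate 4 (in WT, without ZT5 replicate 2), and the highest without KO ZT1 replicate 2 or KO ZT5 replicate 3 (in WT, without ZT1 replicate 6).

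Gene levels of same-numbered KO libraries, taken around their group means, correlated at -0.13 to 0.15, and 1 of 6 pairs exceeded 0.1. The share of reads aligned to more than 1 place followed the numbers in part. Replicates 5 and 6 had the highest shares at ZT1 (54.3% and 55.5%) and at ZT5 (47.8% and 45.1%). Whether same-numbered libraries share a batch was not tested. With the replicate block, 45 KO genes passed, 5 higher and 40 lower at ZT5, with 30 of the 110 among them. So did 45 differences, 5 genes in both genotypes, 9 in the KO with a difference and 27 in WT with a difference. Among the results recomputed, which were the KO changes of the genes named by rule and every called KO or WT change and called difference of the genes named here, none changed direction. Of the called differences, those of AAEL006715, AAEL024645, AAEL001194 and AAEL022506 were lost in 18, 22, 24 and 21 of 32 alternatives.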

Other observations

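Genes chosen after their values were seen add to the WT side of the comparison. They were picked from the 80 genes with a called difference (0.668% of all genes tested). The other members of their pathways were not counted, so they give no result about a pathway. The fatty acid synthesis genes AAEL001194 and AAEL022506 rose in WT by 0.45 and 0.33 on the log2 scale (adjusted p = 0.0047 and 0.00493). In the KO they had -0.28 and -0.12 (adjusted p = 0.236 and 0.371), and the difference passed for both (adjusted p = 0.0444 and 0.0476), though in 8 and 11 of 32 alternatives only. AAEL013542, of fatty acid elongation, had -0.17 in the KO and 0.50 in WT (adjusted p for the difference = 0.0302). AAEL006834 and AAEL007033, both of arginine and proline metabolism, had -0.27 and -0.20 in the KO, against 0.37 and 0.31 in WT (adjusted p for the difference = 0.0168 and 0.0213).

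Several gene groups gave no call in the KO. All 10 cytosolic ribosome genes had negative values (median -0.29, and -0.18 without composition scaling) and none passed, though 9 had an unadjusted p below 0.05, where 23.6% of all genes tested did. The ribosome list came from the study's enrichment of KO against WT genes, which used these same KO libraries, so its direction is not independent evidence. Lists of that source also leaned the other way, with 24 of 25 DNA conformation change genes and 19 of 20 chromatin remodeler genes positive. None of 10 antimicrobial and recognition genes, 5 salivary genes, 5 neuropeptide genes or 4 phototransduction genes passed by edgeR, with 4, 1, 1 and 1 at an unadjusted p below 0.05. Summed levels of the 5 salivary genes ran from 518 to 764 CPM at ZT5 and from 583 to 806 CPM at ZT1 in the KO, and those of the 4 phototransduction genes from 7810 to 11400 CPM at ZT5 and from 8600 to 11400 CPM at ZT1. The part of these tissues in the results was not tested.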
